A study of Capra hircus and Bos taurus with 7 samples.

Results

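The miR-30 family is a group of microRNAs (miRNAs), short RNAs that guide repression of matching mRNAs, whose members share the seed at their 5′ end and so can bind many of the same mRNAs. Its members here were all rows named miR-30a to miR-30f, of either arm of the hairpin. The rule gave 7 rows of the 364 in each table, listed as bta-miR-30a-5p, bta-miR-30d, bta-miR-30e-5p, bta-miR-30b-5p, bta-miR-30c, bta-miR-30f and bta-miR-30b-3p and written here without the prefix for cattle. Of these, 6 were abundant enough to be tested between goat powders, among 209 miRNAs tested, and miR-30b-3p was not.

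The RNA came from extracellular vesicles, membrane-bound particles shed by cells, that were separated by size exclusion chromatography from milk powders dissolved in warm water. There were 7 small RNA libraries: 1 from a commercial bovine (Bos taurus) powder, 3 from skimmed goat (Capra hircus) powder and 3 from whole goat powder, lettered A to C within each goat powder. The labels give no breed, age, number of animals or lot, and do not say whether the letters are separate packs or repeat isolations, so p-values cover only variation among these libraries, some of which could be technical. With 1 bovine library, species, product and library cannot be told apart.

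The family is expressed in most tissues and is best known in epithelia, where its members repress Snai1, a driver of the change from epithelial to mesenchymal state. In human fat cell precursors miR-30a and miR-30d repress RUNX2 and favour fat cell formation. In mice, excess miR-30b in the mammary gland impairs lactation, and excess miR-30c in the liver lowers lipoprotein secretion. In mammals the genes lie in pairs that can be cut from a shared transcript. The mature 5p forms share the seed, and their identity beyond it was not computed here.

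In every library the family was carried by miR-30a-5p and miR-30d, and their order differed between the goat powders. Reads of miR-30d outnumbered those of miR-30a-5p in all 3 skimmed libraries, while miR-30a-5p outnumbered miR-30d in all 3 whole libraries and in the bovine library. As a share of all miRNA reads the family took 20.0% in the bovine library, 12.3%, 12.9% and 12.8% in skimmed A, B and C, and 14.7%, 15.2% and 15.5% in whole A, B and C. The skimmed shares lay below all whole shares, at 12.7% ± 0.289 against 15.1% ± 0.417 (SD, n = 3 each), and the bovine share lay above all 6 goat shares. The difference in share between the goat powders was thus larger than the spread between libraries of either powder. TMM scaling corrects library totals for unequal composition. With it the family stood at 128210 to 132870 counts-per-million (CPM) in skimmed and 142410 to 152900 CPM in whole powder, again without overlap. The members did not all share this direction. Without TMM scaling, miR-30a-5p averaged 46018 CPM in skimmed and 72635 CPM in whole powder, and miR-30d 59667 and 56662 CPM. Of the 6 tested members, 3 had a log2 fold change, skimmed over whole, above 0 and 3 below.

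**Figure D1:**
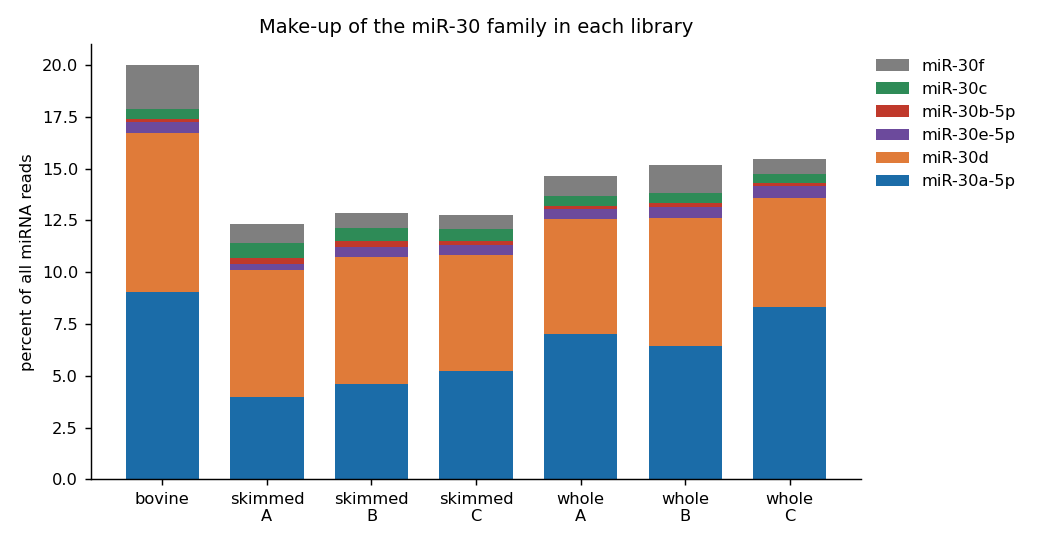
Stacked bars give the reads of 6 miR-30 family members as a percentage of all miRNA reads in each of the 7 libraries (x axis). The bars reach 20.0% in the bovine library, 12.3% to 12.9% in skimmed goat and 14.7% to 15.5% in whole goat powder, and the miR-30a-5p segment is larger than that of miR-30d in the bovine and whole libraries and smaller in the skimmed ones.

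The most abundant member by mean over the goat libraries was miR-30a-5p, at 39793, 46006 and 52253 CPM in skimmed A, B and C and at 70371, 64429 and 83105 CPM in whole A, B and C. All skimmed libraries lay below all whole libraries. Among the 364 miRNAs of a library it ranked 7 or 8 in skimmed and 2 in each whole library. Its log2 fold change, skimmed over whole, was -0.57 ± 0.15 (SE), a ratio of 0.672, and it missed the threshold of 0.05 in the quasi-likelihood test of edgeR (Benjamini-Hochberg adjusted p = 0.12 over 209 miRNAs). Without whole C its log2 fold change was -0.44.

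Near it stood miR-30d, known from human uterine fluid as a miRNA taken up by the embryo from vesicles. It held 61490, 61584 and 55927 CPM in skimmed A, B and C and 55163, 61895 and 52927 CPM in whole A, B and C. The powders overlapped, and the log2 fold change was 0.17 ± 0.12 (edgeR adjusted p = 0.70). Its coefficient of variation was the lowest of the members in skimmed powder, at 5.43%, and was 8.24% in whole powder.

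The less abundant miR-30e-5p held 2823, 4495 and 4843 CPM in skimmed A, B and C and 5025, 5362 and 5469 CPM in whole A, B and C. The groups did not overlap, but skimmed A stood far below the other two skimmed libraries. Its log2 fold change was -0.30 ± 0.18 (edgeR adjusted p = 0.64), and -0.14 without skimmed A.

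The mammary-linked miR-30b-5p held 2557, 2789 and 2122 CPM in skimmed A, B and C and 1455, 1519 and 1724 CPM in whole A, B and C. Every skimmed library lay above every whole library. At a log2 fold change of 0.76 ± 0.15 (SE), a ratio of 1.70, it was second of the 209 miRNAs by p and stayed short of the threshold (edgeR adjusted p = 0.076).

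The same order held for miR-30c, at 7655, 6442 and 5767 CPM in skimmed A, B and C and 5042, 5254 and 4041 CPM in whole A, B and C. Its groups did not overlap, and its highest level was in skimmed A, the library in which miR-30e-5p was lowest. The log2 fold change was 0.57 ± 0.16 (SE; edgeR adjusted p = 0.12).

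The last 5p member, miR-30f, is a name used in ruminants. It held 8961, 7355 and 6968 CPM in skimmed A, B and C and 9598, 13524 and 7604 CPM in whole A, B and C. The groups overlapped and whole B stood high. Its log2 fold change was -0.29 ± 0.20 (edgeR adjusted p = 0.70), and -0.08 without whole B.

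**Figure D2:**
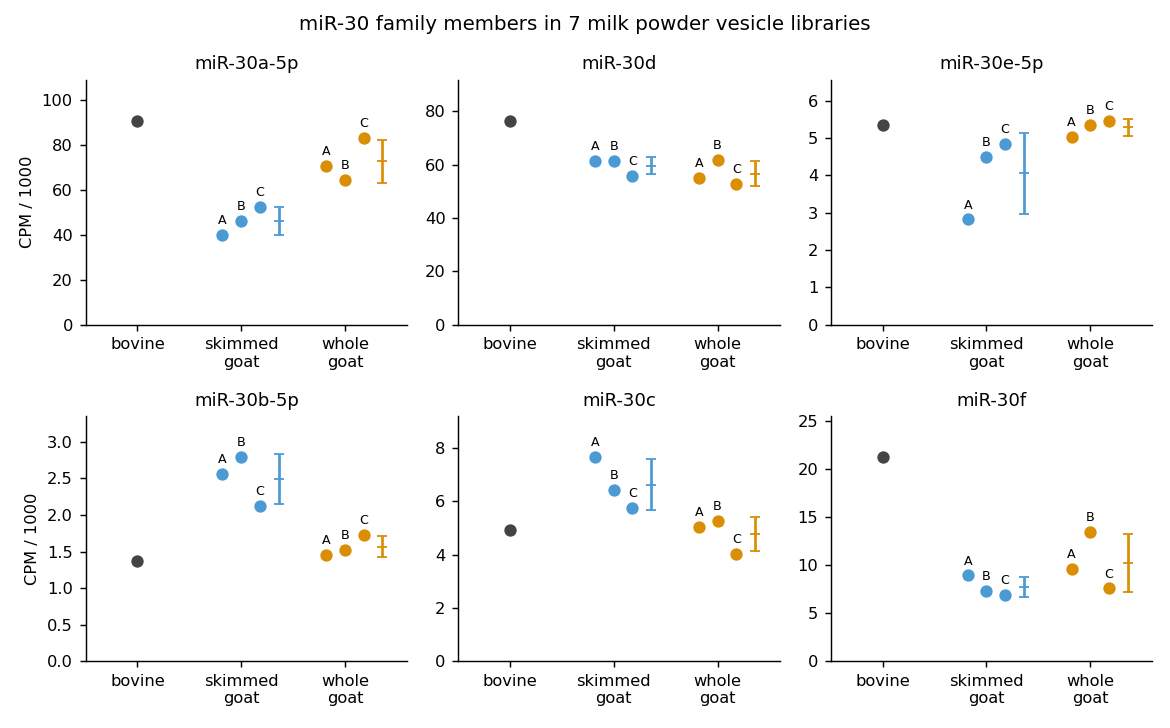
Each panel plots a miR-30 family member in CPM divided by 1000 (y axis) for the bovine library, the 3 skimmed and the 3 whole goat libraries, lettered A to C, with the mean and SD of each goat powder beside its points. The skimmed points lie below all whole points for miR-30a-5p and miR-30e-5p and above them for miR-30b-5p and miR-30c, and overlap with them for miR-30d and miR-30f.

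Counted over the family, 0 of 6 tested members passed in edgeR in either direction, where 0.478% of all tested miRNAs (miR-25 alone) were higher and 0.0% lower, and limma-voom also called 0 members. At an unadjusted p under 0.05 there were 2 members above and 1 below 0, beside 5.74% and 4.78% of all tested miRNAs. DESeq2's Wald test called 3 members, miR-30b-5p (adjusted p = 0.0062) and miR-30c (0.025) above 0 and miR-30a-5p (0.0032) below, and 9.05% of the 243 miRNAs it tested (4.12% higher and 4.94% lower). The libraries of the 2 powders lay fully apart for 4 of the 6 members, 2 in each direction, beside 20.1% of all tested miRNAs (9.57% higher and 10.5% lower in skimmed). Of the 64 tested miRNAs with at least 1000 CPM, a class that holds all 6 members, 11 were higher without overlap and 12 lower. With TMM scaling the same 4 members did not overlap. The median log2 fold change of the members was -0.06, against 0.03 over all tested miRNAs. The median size of the change, regardless of direction, was 0.44 for the members, 0.38 for all tested miRNAs and 0.24 for those with at least 1000 CPM. Upper-quartile scaling moved the median of all tested miRNAs by -0.14 on the log2 scale, while the members kept the sign of their log2 fold change under each scaling tried.

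**Figure D3:**
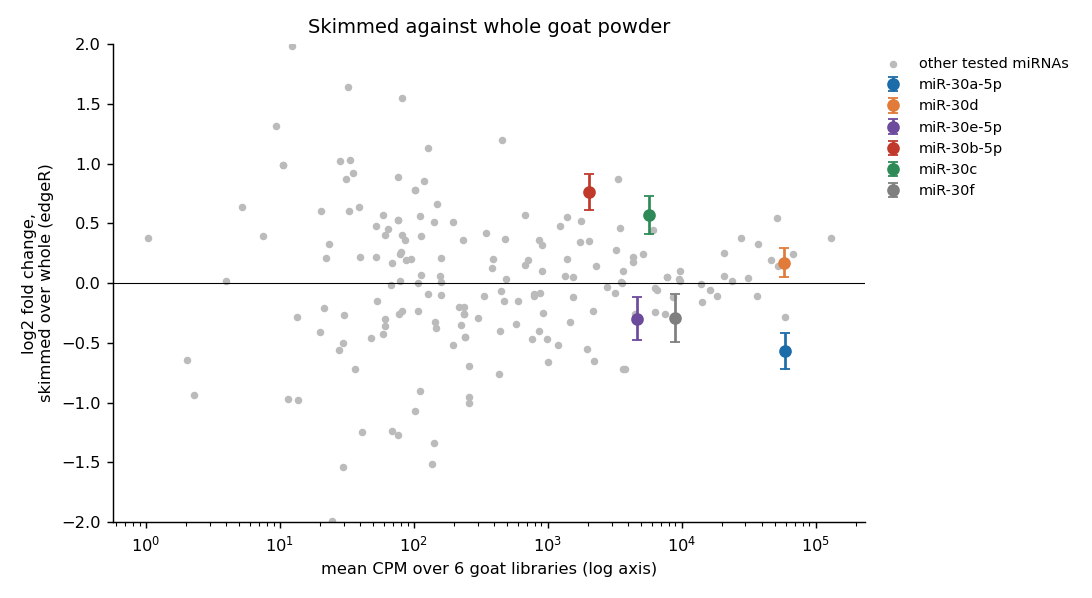
The log2 fold change of skimmed over whole goat powder (y axis) is plotted against mean CPM over 6 goat libraries (x axis, log scale) for the 6 tested members with their SE and for 180 other tested miRNAs. The other 23 lie beyond a log2 fold change of 2 in size; the members run from -0.57 for miR-30a-5p to 0.76 for miR-30b-5p.

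Ratios between members come from the same library and do not depend on how libraries are scaled. The ratio of miR-30a-5p to miR-30d was 0.647, 0.747 and 0.934 in skimmed A, B and C, against 1.28, 1.04 and 1.57 in whole A, B and C, and 1.18 in the bovine library. The skimmed values lay below 1 and the whole values above it. For miR-30b-5p over miR-30a-5p the ratio was 0.0643, 0.0606 and 0.0406 in skimmed and 0.0207, 0.0236 and 0.0208 in whole libraries. It did not overlap, and its geometric mean was 2.50 times as high in skimmed as in whole powder. Likewise miR-30c over miR-30a-5p stood at 0.192, 0.140 and 0.110 in skimmed and 0.0716, 0.0815 and 0.0486 in whole libraries, 2.19 times as high in skimmed. Other pairs overlapped: miR-30a-5p over miR-30e-5p ran from 10.2 to 14.1 in skimmed and from 12.0 to 15.2 in whole libraries, and miR-30c over miR-30b-5p from 2.31 to 2.99 in skimmed and from 2.34 to 3.46 in whole libraries. No p is given for these ratios, since 3 libraries against 3 allow no exact two-sided permutation p below 0.1.

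Within the family total, miR-30a-5p made up 36.3% ± 4.32 in skimmed and 48.0% ± 5.63 in whole powder (SD, n = 3 each), while miR-30d made up 47.2% ± 3.13 in skimmed and 37.5% ± 3.28 in whole powder. Neither share overlapped between the powders. Added together, the pair held 83.4% ± 1.24 of the family in skimmed and 85.5% ± 2.36 in whole powder, and 83.5% in the bovine library. Among the minor members, miR-30c held 5.24% ± 0.873 in skimmed and 3.17% ± 0.484 in whole powder, and miR-30b-5p held 1.97% ± 0.270 in skimmed and 1.04% ± 0.0679 in whole powder. The shares of miR-30e-5p, at 3.19% ± 0.794 in skimmed and 3.50% ± 0.0596 in whole powder, overlapped, as did those of miR-30f, at 6.14% ± 0.981 in skimmed and 6.78% ± 2.01 in whole powder.

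Members encoded side by side were then set against each other. In the RefSeq goat gene table (assembly ARS1.2), which lists 6 miR-30 genes, MIR30B is next to MIR30D, MIR30E is next to MIR30C and follows NFYC, a subunit gene of a CCAAT-binding factor, and MIR30F is next to MIR30A. Ratios between neighbours varied among the libraries. The ratio of miR-30d to miR-30b-5p was 24.0, 22.1 and 26.4 in skimmed A, B and C, against 37.9, 40.7 and 30.7 in whole A, B and C. That of miR-30e-5p to miR-30c was 0.369, 0.698 and 0.840 in skimmed and 0.997, 1.02 and 1.35 in whole libraries. Both ratios were lower in skimmed powder without overlap. For miR-30e-5p over miR-30c this had to follow, as their CPM lay apart in opposite directions. In contrast, miR-30a-5p over miR-30f ran from 4.44 to 7.50 in skimmed and from 4.76 to 10.9 in whole libraries, which overlapped. Across the 6 goat libraries, the log2 CPM of miR-30c and miR-30a-5p had a Pearson correlation of -0.98, the farthest from 0 among the members. Between neighbours the correlation was 0.47 for miR-30b-5p and miR-30d, -0.85 for miR-30e-5p and miR-30c, and 0.20 for miR-30f and miR-30a-5p. These are descriptions over 6 libraries of 2 powders, in which values are shares of a common total.

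**Figure D4:**
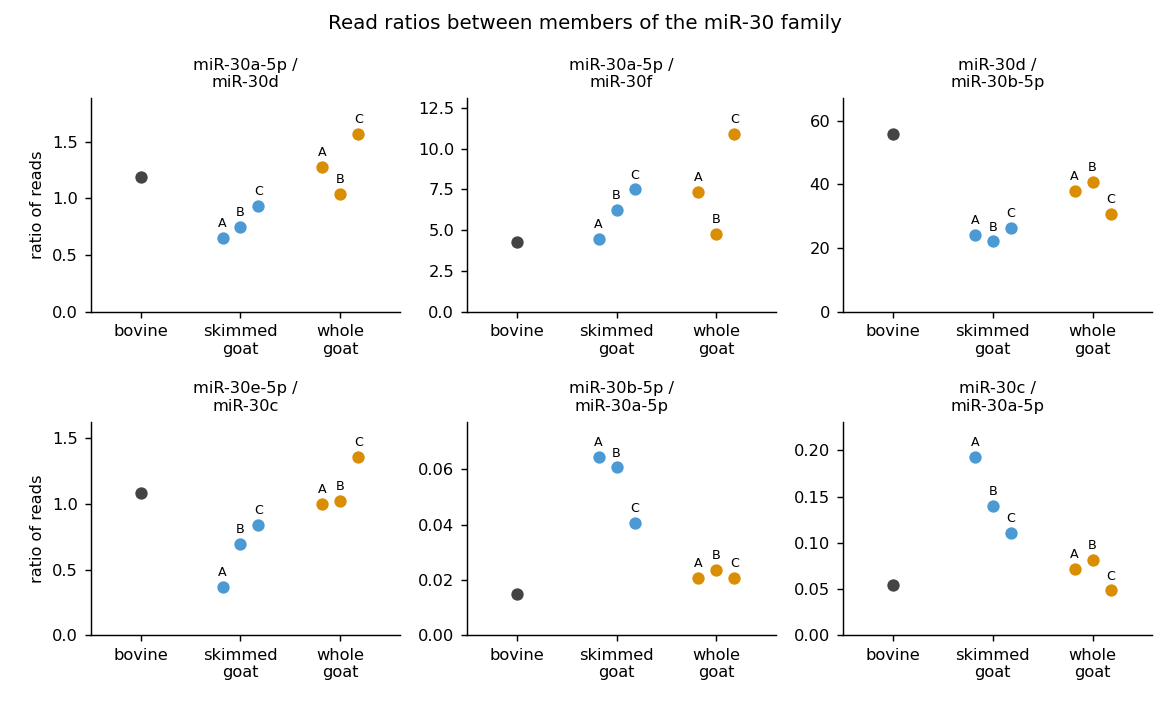
Each panel plots the ratio of reads of a pair of miR-30 family members (y axis) in the bovine library, the 3 skimmed and the 3 whole goat libraries, lettered A to C. Of the 6 pairs plotted, the skimmed and whole points overlap only for miR-30a-5p over miR-30f, where the skimmed points run from 4.44 to 7.50 and the whole points from 4.76 to 10.9. Not plotted are miR-30a-5p over miR-30e-5p and miR-30c over miR-30b-5p, which also overlapped. Pairs of a member lower and a member higher in skimmed without overlap had to lie apart.

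The only 3p row, miR-30b-3p, stood apart from the others. It had 341, 0 and 2 reads in skimmed A, B and C, 1, 1 and 2 reads in whole A, B and C, and 0 reads in the bovine library. Skimmed A thus held 98.3% of its goat reads, and there the 5p arm of the same hairpin had 69.6 times as many reads. A count of 0 allows up to 0.362 CPM in skimmed B and 0.529 CPM in the bovine library, at 3 reads, for counting error only. Such a pattern was not particular to miR-30b-3p by count: 8 miRNAs, this one included, had at least 100 reads in skimmed A and at most 10 in each other goat library, and the number was 4 to 8 in the others.

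The bovine powder gave a second view of the balance within the family, in 1 library and with no test. As a ratio to the goat mean, the largest among the members was that of miR-30f (log2 ratio 1.24), with 21260 CPM (95% exact Poisson interval 21141 to 21381) in the bovine library, against a mean of 9002 and a range of 6968 to 13524 CPM in the 6 goat libraries. It made up 10.6% of the bovine family reads, above its 4.91% to 8.90% in the goat libraries. Also higher was miR-30a-5p, at 90679 CPM (90431 to 90927) against 39793 to 83105 CPM in goat, and miR-30d, at 76585 CPM (76357 to 76813) against 52927 to 61895 CPM. Both lay above the goat range. Below it lay miR-30b-5p, at 1369 CPM (1339 to 1400) against 1455 to 2789 CPM in goat. Inside it were miR-30e-5p at 5361 CPM and miR-30c at 4945 CPM.

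Among the 6 members that averaged 100 CPM or more, miR-30f was the 1 outside the goat range and at least 2-fold from the goat mean, a rule met by 57.6% of 125 miRNAs, with 14.4% above and 43.2% below. Position outside the goat range alone held for 3 members above and 1 below, beside 82.4% of the 125 (28.0% above and 54.4% below). The median miRNA of the 125 had a bovine level of 0.601 times the goat mean. Of the 54 miRNAs counted below, 25 belong to a band of miRNAs at 0.529% to 1.44% of the goat mean, and the part of that band in this background was not tested. TMM scaling over the 7 libraries raised all bovine ratios by 0.44 on the log2 scale, which gave miR-30f a log2 ratio of 1.68 in place of 1.24. With it miR-30a-5p, at a log2 ratio of 1.05 in place of 0.61, also met the rule, so that 2 members did. The sign for miR-30c was not stable: its log2 ratio in CPM was -0.20 against all goat libraries, -0.42 against the skimmed and 0.049 against the whole ones, and 0.23 with TMM scaling.

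**Figure D5:**
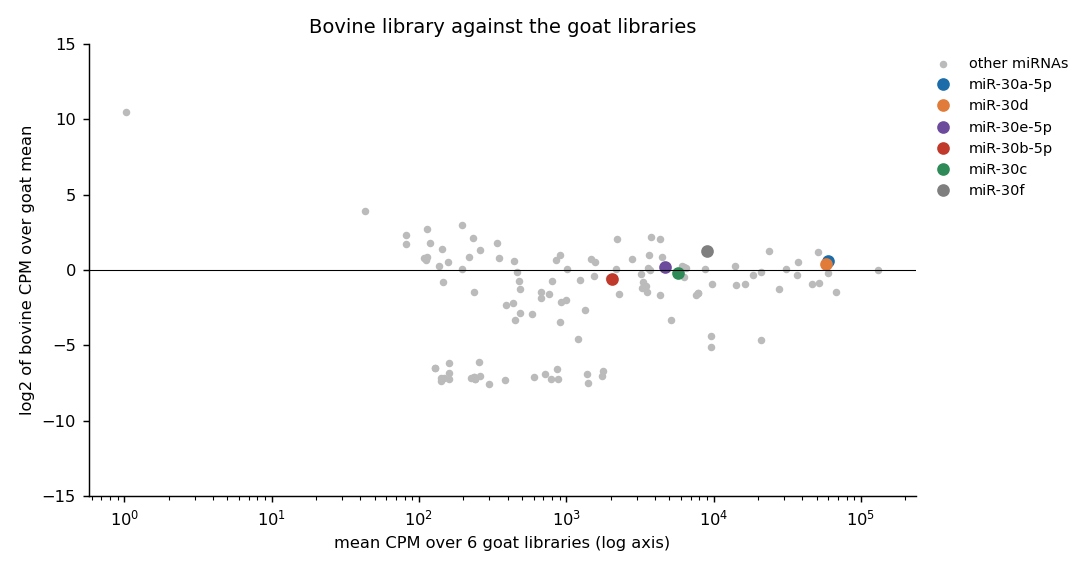
The log2 ratio of bovine CPM to the goat mean (y axis) is plotted against the mean CPM of 6 goat libraries (x axis, log scale) for 6 miR-30 family members and 119 other miRNAs that averaged 100 CPM or more over all 7 libraries. Members lie between -0.57 for miR-30b-5p and 1.24 for miR-30f, while 26 other miRNAs form a band near -7.

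The ratios set the bovine library nearer to whole than to skimmed goat powder for some pairs and outside both for others. Its ratio of miR-30a-5p to miR-30d, at 1.18, and that of miR-30e-5p to miR-30c, at 1.08, lay within the range of the whole libraries and above that of the skimmed ones. So did miR-30c over miR-30a-5p within the whole range, at 0.0545, though below the skimmed values. Its ratio of miR-30d to miR-30b-5p, at 55.9, lay above all goat values, and that of miR-30a-5p to miR-30f, at 4.27, below them. Also above all goat values were miR-30a-5p over miR-30e-5p, at 16.9, and miR-30c over miR-30b-5p, at 3.61. Below them was miR-30b-5p over miR-30a-5p, at 0.0151.

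Outside the family, the miRNAs most like each member across the 6 goat libraries were found by the Pearson correlation of log2(CPM + 1) among 120 miRNAs with at least 100 CPM. As the highest of 120 values over 6 libraries of 2 powders, these correlations are descriptions only. The pattern of miR-30a-5p was closest to miR-141 (0.96), miR-21-5p (0.93) and miR-200a (0.92). Of these, miR-141 and miR-200a belong to the epithelial miR-200 family, and miR-21 is widely expressed. That family went both ways between powders, with log2 fold changes of -0.55 for miR-141, -0.24 for miR-200a and 0.33 for miR-200c. Closest to miR-30d were let-7e (0.99), miR-423-5p (0.87) and let-7b (0.85), and to miR-30c let-7a-5p (0.97), miR-362-5p (0.95) and let-7b (0.92). For miR-30b-5p they were miR-151-3p (0.97), miR-200c (0.94) and miR-375 (0.89), the last a miRNA of secretory epithelia. For miR-30e-5p they were miR-141 (0.93), miR-499 (0.90) and miR-28 (0.89), and for miR-30f miR-361 (0.96), miR-125a (0.89) and miR-2898 (0.88). None of these miRNAs passed between powders in edgeR, while DESeq2 called let-7a-5p (adjusted p = 0.048) and miR-151-3p (0.045) higher and miR-125a (0.0083) lower in skimmed. The nearest to miR-30a-5p, miR-141, stood at 1542 ± 304 CPM in skimmed and 2386 ± 99.2 CPM in whole powder (SD, n = 3 each; log2 fold change -0.55 ± 0.15, edgeR adjusted p = 0.12).

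Lists of miRNAs of related processes and of other cells gave the setting. None of the 15 tested lipid and adipocyte miRNAs and none of the 10 tested epithelial miRNAs passed in edgeR or DESeq2, with median log2 fold changes of -0.12 for the lipid and -0.06 for the epithelial list. Epithelial miRNAs, led by miR-200c, took 10.9% to 11.7% of skimmed and 10.2% to 10.8% of whole reads, and lipid miRNAs, led by miR-21-5p, 15.8% to 20.2% of skimmed and 18.5% to 23.0% of whole reads. Leukocyte miRNAs (9 tested, led by miR-146b) took 3.14% to 3.35% of skimmed and 2.88% to 3.46% of whole reads, and erythroid miRNAs (3 tested, led by miR-16a) 1.76% to 2.11% of skimmed and 1.93% to 2.02% of whole reads. Only 3 of the 5 erythroid names had a row, without miR-451 and miR-144. The erythroid reads were mostly miR-16a and miR-16b, with goat means of 9672 and 9590 CPM, against 36.7 CPM for miR-486. Stromal and endothelial miRNAs (4 tested, led by miR-125b) took 0.331% to 0.402% of skimmed and 0.377% to 0.521% of whole reads, and muscle, liver and nerve miRNAs (2 tested, led by miR-128) 0.0731% to 0.0805% of skimmed and 0.0474% to 0.0908% of whole reads. In the stromal and endothelial list, as in the muscle, liver and nerve list, 5 of the 10 names had a row. None of the tested miRNAs of these lists passed in edgeR. Of the tested leukocyte miRNAs, 6 had a log2 fold change above 0 and 3 below, with miR-223 at 0.55 and higher in skimmed without overlap. Of the tested stromal and endothelial miRNAs, 1 lay above 0, miR-143 at 0.52 and without overlap, and 3 below. DESeq2 called miR-150 of the leukocyte list and miR-125b of the stromal and endothelial list lower in skimmed powder. It called miR-126-3p of the latter list, which edgeR did not test, higher (DESeq2 adjusted p = 0.029 each). These calls are named after their values were seen. In skimmed and whole powder miR-150 averaged 0.040 and 13.6 CPM, miR-126-3p 21.3 and 0 CPM, and miR-125b 1651 and 2766 CPM. Over the skimmed libraries miR-126-3p ran from 0 to 43.6 CPM, so the powders overlapped for it. In the bovine library epithelial miRNAs took 11.2% of reads, lipid miRNAs 13.6%, leukocyte miRNAs 0.390%, erythroid miRNAs 0.0741%, stromal and endothelial miRNAs 0.934%, and muscle, liver and nerve miRNAs 0.0246%. The bovine stromal and endothelial share was mostly miR-125b, at 9309 CPM against a goat mean of 2208 CPM. The rest of that list lay below their goat means. They were miR-143 (16.8 against 1774 CPM), miR-100 (16.1 against 29.9), miR-145 (0.352 against 27.5) and miR-126-3p (0 against 10.6). Of the cell type lists, the epithelial share did not overlap between the goat powders. Its tested members went both ways, with 4 log2 fold changes above and 6 below 0; miR-200c stood at 0.33, and miR-200a at -0.24 and miR-141 at -0.55. The part of this list in the values of the miR-30 family was not tested. In vesicles, fewer vesicles of a source and less RNA per vesicle cannot be told apart.

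Depth was 5675489 miRNA reads in the bovine library and 6561887 to 11963849 in the goat libraries, so counting error was small for the 5p members. Fractional counts bear on members that share sequence. A whole number of reads (within 1e-06) was held by 0 of 7 libraries for miR-30a-5p, miR-30d or miR-30e-5p. For miR-30b-5p and for miR-30f 1 library did, and 2 did for miR-30c. Over all miRNAs, 36.9% to 46.7% of the values above 0 in a library were whole numbers, so fractions were common outside the family too. The sources used here do not give how the deposited counting divided reads between the members, so each member's level is uncertain by an unknown amount, and the levels of goat members rest on bovine names.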

How the data were processed

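Per the labels' protocols, a total RNA kit was used for extraction, and small RNA libraries were made, gel-selected by size and sequenced as single-end reads. Each table holds, per the file headers, deposited counts for bovine mature miRNA names; as many values are fractions, they were taken as estimated counts that the authors did not normalize. For the aligner, counter, miRNA reference and build: not given in the sources used here.

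CPM was computed over all 364 miRNAs. For tests, estimated counts were rounded and fitted for the 6 goat libraries with edgeR 4.0.16 in R 4.3.3 (default filter on low counts, TMM factors 0.928 to 1.067, quasi-likelihood test, Benjamini-Hochberg over 209 miRNAs, threshold 0.05). DESeq2 1.42.0 and limma-voom (limma 3.58.1) were alternatives, beside other scalings, no filter, left-out libraries and a block on the library letter. The fit was tested on simulated data first. The bovine library was described with exact Poisson intervals at 95%. PCR copies cannot be told from separate molecules without identifiers, so intervals and floors (3 reads) cover counting error only. The members, lists and comparisons were chosen with earlier results of these data known. Named miRNAs are all members, the 3 most correlated miRNAs of each tested member (at least 100 CPM in goat) and the most abundant tested miRNA of each list. As members of small counts, miR-25, miR-150 and miR-126-3p were named after their values were seen. Other miRNAs named from the lists were also chosen after their values were seen.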

Additional observations from a re-analysis of the deposited data

How the results depend on the processing

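The members kept the sign of their log2 fold change between skimmed and whole powder in all 84 alternative values, and 81 stayed on the same side of the threshold. The exceptions were in DESeq2's Wald test, which called miR-30a-5p (-0.61), miR-30b-5p (0.72) and miR-30c (0.53). Over all alternatives the log2 fold change ran from -0.72 to -0.44 for miR-30a-5p, 0.60 to 0.87 for miR-30b-5p, 0.39 to 0.66 for miR-30c and 0.02 to 0.22 for miR-30d. The number of miRNAs past the threshold, 1 as reported, was 0 when let-7a-5p was removed and under 3 other scalings (upper quartile, library totals and the size factors of DESeq2), 2 with no filter on low counts and 22 with DESeq2; it was 0 to 1 with a library left out. The cause was not tested. With the replicate block on the letters A to C the number was 0, and no call of a member changed. Deviations from the powder means correlated at 0.18 for the A libraries, 0.14 for B and 0.06 for C, short of the 0.1 in every pair asked of a pairing, although each library correlated best with its own letter. All 56 alternative values of the shares moved by less than the pooled SD of the libraries, but the skimmed minus whole difference changed sign for miR-30e-5p without skimmed A (0.145 against -0.305 percentage points) and for miR-30f without whole B (0.417 against -0.641). TMM scaling over 7 libraries moved the bovine log2 ratios to 1.05 for miR-30a-5p, 0.84 for miR-30d, 0.64 for miR-30e-5p, -0.13 for miR-30b-5p, 0.23 for miR-30c and 1.68 for miR-30f; the other 18 alternatives for these ratios moved them by less than 1 SD of the goat libraries, though miR-30c turned to 0.049 against whole powder alone, and miR-30e-5p stood there at 0.021 against 0.199. For miR-30b-3p, filtered before the main test, no value from the other fits is given here.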

Other observations

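In the plot of bovine against goat levels, 26 of the 125 miRNAs described stood more than 64-fold below the goat mean in the bovine library, at a narrow 0.529% to 1.44% of it (median 0.729%), with 5 to 95.5 reads each. This was noticed after the values were seen. The 6 abundant miR-30 family members stood at 67.5% of the goat mean or above, and the part of this band in their values, and in the bovine shares of the other miRNA lists, was not tested.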
